A study of Mus musculus with 16 samples.

Results

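The comparison described here sets macrophages of mice lacking Toll-like receptor 3 (TLR3-KO) that had been through a bacterial pneumonia beside macrophages of TLR3-KO mice that had not. It took the 4 libraries titled TLR3-KO injured and the 4 titled TLR3-KO control, 8 of the 16 libraries of the series, and every tested gene outside the X and Y chromosomes, 11915 of 12455. The other 8 libraries came from wild-type (WT) mice, 4 injured and 4 control, and are used here to set the WT response beside that of TLR3-KO. RNA was sequenced from macrophages recovered by bronchoalveolar lavage, a rinse of the airways and air sacs.

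TLR3-KO injured mice carried the Tlr3 knockout and were sampled following pneumonia. Their inoculum was 30 µl with 500 CFU (colony-forming units) of live Klebsiella pneumoniae, placed deep in the hypopharynx under isoflurane. TLR3-KO control mice carried the same knockout, and their treatment is labelled none, although the protocol also names a saline inoculation. WT injured and WT control mice were handled alike without the knockout. The sources used here do not give the allele of the knockout, the mouse strain, the age or the time after inoculation. The labels do not say that each library is a separate mouse, so p-values measure the spread between libraries, which may be partly technical.

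TLR3 sits in endosomes, binds double-stranded RNA and signals through the adaptor TRIF to the transcription factors IRF3 and NF-kB, which switch on type I interferon and inflammatory genes. Klebsiella pneumoniae is also sensed through its lipopolysaccharide by TLR4, which uses TRIF as well, so a macrophage without TLR3 keeps other routes to interferon. Resident alveolar macrophages clear surfactant lipids and inhaled particles, and in pneumonia they share the airspace with recruited monocytes and neutrophils.

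The 8 TLR3-KO libraries held between 29667102 and 47517700 counts. Tlr3 was counted at 0.51 ± 0.165 CPM (counts scaled to a common library total) in TLR3-KO and 3.46 ± 0.978 CPM in WT libraries (SD, n = 8 each), 14.7% of the WT level (two-sided exact permutation p = 0.000155, the lowest possible with 8 in each group), and gene totals do not show which exons were left. The libraries held genes of macrophages: none of the 33 listed genes of alveolar macrophage identity in the table stayed under 1 CPM in all 8. Their summed level, led by Chi3l3, lay between 54818 and 57321 CPM in injured and between 47845 and 59930 CPM in control libraries. Chi3l3 also led the list of recruited monocytes and macrophages, so this sum does not tell resident from recruited cells. The series is titled as male, but TLR3-KO controls 1 to 3 held Xist, the RNA of the inactive X chromosome, at 20.3 to 42.3 CPM, against at most 0.23 CPM in the other 13 libraries. Of 4 Y-linked genes together controls 1 to 3 held 0.758, 1.16 and 23.2 CPM in that order, against 163 to 235 CPM elsewhere. Control 3 was thus unlike controls 1 and 2, with Xist at 20.3 CPM beside a part of the Y-linked level. Pneumonia and this difference between the controls cannot be told apart in TLR3-KO controls 1 to 3, so values against TLR3-KO control 4 alone, the single control without Xist, are given for some of the results below. In bulk RNA, fewer cells of a type and less RNA per cell cannot be told apart either.

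Pneumonia was followed by a change in 186 of the 11915 genes in TLR3-KO macrophages, 1.56% of those tested, at an adjusted p under 0.05 (edgeR's quasi-likelihood test, Benjamini-Hochberg over all 12455 genes). Genes that passed are called here. Interferon-induced and antimicrobial genes stood among the largest rises, and MHC class II genes, the lectin receptor Clec1b and the lipid carrier Apoe among the largest falls. Of the calls, 111 were higher (0.932% of genes tested) and 75 lower (0.629%), and 74 changed at least 2-fold (0.621%), 53 of them higher and 21 lower. The median log2 fold change over all 11915 genes was -0.01, and 48.7% were positive. Injured and control libraries did not overlap in 179 of the 186, where 11.2% of all genes tested lay without overlap on the higher side and 3.03% on the lower side. An unadjusted p under 0.05 was reached by 2857 genes (24%). Most calls lay close to the threshold, since 120 of the 186 had an adjusted p between 0.04 and 0.05.

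**Figure D1:**
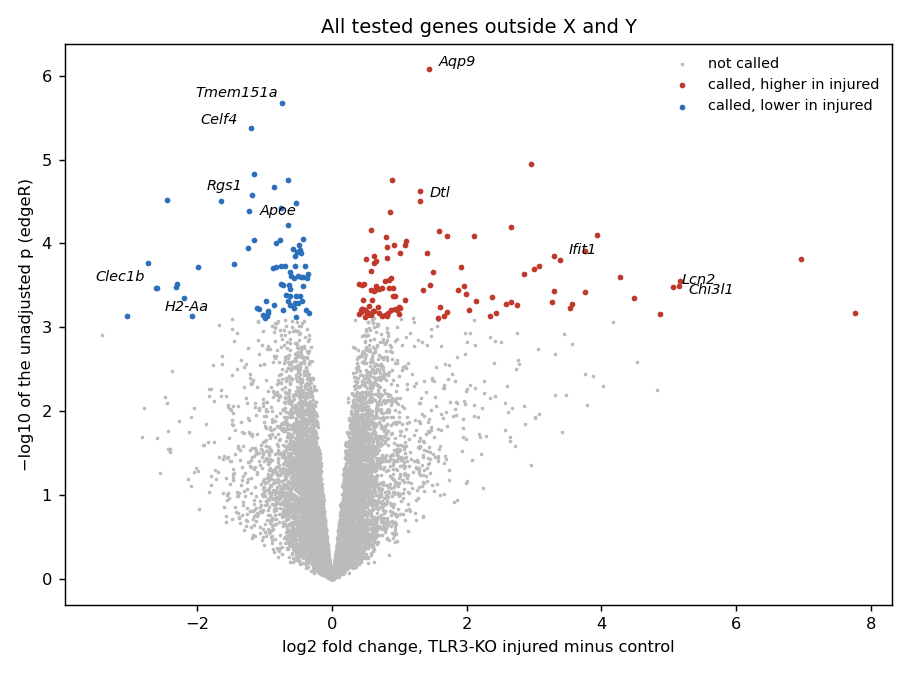
Each point is 1 of the 11915 tested genes outside X and Y. The horizontal axis gives the log2 fold change of TLR3-KO injured over TLR3-KO control libraries and the vertical axis the −log10 of the unadjusted p of edgeR's quasi-likelihood test. Red points are the 111 genes called higher and blue points the 75 called lower. The 2 points farthest right are Nos2 and Prok2, which had no count in any control library, so their place on the horizontal axis depends on the prior count of the fit. Aqp9 has the lowest p.

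The number of calls rested on which libraries were used. Without TLR3-KO control 1, 2, 3 or 4 it was 31, 1181, 7 or 6, and without TLR3-KO injured 1, 2, 3 or 4 it was 3, 21, 0 or 17. With TLR3-KO control 4 as the only control 6 genes were called, against controls 1 and 2 alone also 6, and against controls 3 and 4 alone 2787. A fit of the 8 TLR3-KO libraries alone gave 35, and DESeq2 gave 991 (8.32% of genes tested), among them 181 of the 186. The sizes moved less than the calls, but the 186 genes were chosen with these same libraries and 179 of them did not overlap. Subsets of the controls would then tend to keep sign and size, so the counts that follow are no test of stability. Against TLR3-KO control 4 alone, 170 of the 186 genes kept at least 0.75 of their log2 fold change, against controls 1 and 2 alone 137 did, and against controls 3 and 4 alone 182 did.

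**Figure D2:**
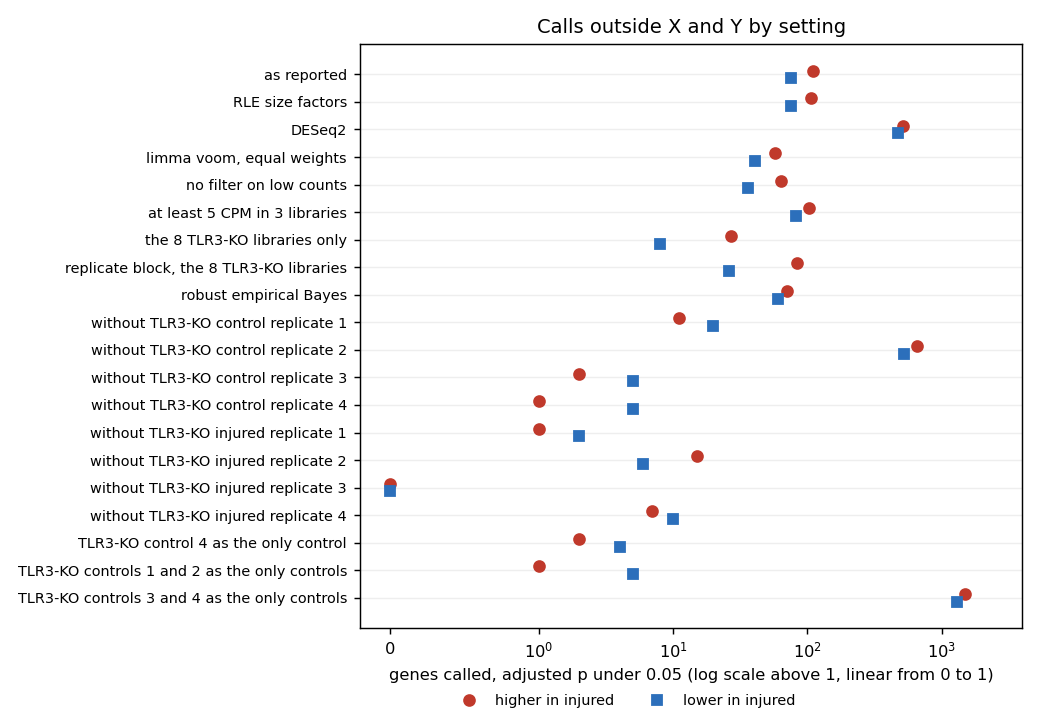
Each line is 1 way of making the comparison, and the horizontal axis counts the genes called at an adjusted p under 0.05 outside X and Y, on a log scale above 1. Red circles are genes higher and blue squares genes lower in TLR3-KO injured libraries. The count is 111 higher and 75 lower as reported, 0 without TLR3-KO injured 3, and largest with controls 3 and 4 as the only controls, at 2787 in all.

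Interferon-stimulated genes were called higher in 11 of 46 tested members, beside 0.932% of all genes tested, and none was called lower. The median log2 fold change of the list was 0.73, and 42 of 46 were positive. Of them 22 lay above every control library, beside 11.2% of all genes tested. The called members were Ifit1, Ifit2, Ifit3, Usp18, Oas3, Oasl2, Rsad2, Cmpk2, Rtp4, Zbp1 and Ddx60. Rsad2, or viperin, makes a chain-terminating nucleotide that blocks viral polymerases, and its neighbour Cmpk2 is a nucleotide kinase. Rsad2 was counted at 55.5, 5.56, 20.6 and 107 CPM in libraries TLR3-KO injured 1 to 4, against 2.51, 1.64, 2.15 and 9.31 CPM in TLR3-KO controls 1 to 4. Injured 4 and 1 were the highest, and injured 2 lay below control 4, so the groups overlapped (log2 fold change 3.56, SE 0.82, adjusted p = 0.0485). Against control 4 alone its log2 fold change was 2.38.

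Injured 4 and 1 were also the highest for Ifit2, Oas3 and Ddx60. Ifit2, an RNA-binding protein of the interferon response, was counted at 11.0, 2.35, 3.78 and 18.1 CPM in libraries TLR3-KO injured 1 to 4, against 0.877, 0.61, 0.864 and 1.08 CPM in controls 1 to 4 (log2 fold change 3.30, SE 0.66, adjusted p = 0.0368). Every injured library lay above every control, with injured 2 and 3 the nearest to them. Oas3, which makes the oligoadenylate that activates RNase L, was counted at 10.9, 2.62, 5.56 and 13.9 CPM in injured 1 to 4, against 1.78, 0.652, 1.1 and 1.45 CPM in controls 1 to 4. Its log2 fold change was 2.66 (SE 0.61, adjusted p = 0.0478), again without overlap. Ddx60, a helicase that aids RNA sensing, was more even among injured libraries, at 6.26, 4.52, 4.25 and 8.58 CPM in injured 1 to 4, against 1.66, 2.15, 1.52 and 1.56 CPM in controls 1 to 4 (log2 fold change 1.71, SE 0.32, adjusted p = 0.0363). Usp18, the protease that removes ISG15 and dampens interferon receptors, averaged 3.3 ± 2.56 CPM in injured libraries, against 0.436 ± 0.107 CPM in the controls (n = 4 each, SD; log2 fold change 2.85, SE 0.60). I830012O16Rik, now named Ifit3b and in none of the lists, averaged 5.75 ± 5.8 CPM in injured libraries, against 0.287 ± 0.183 CPM in the controls (log2 fold change 4.27, SE 0.91). It is a close copy of Ifit3, so reads may have been split between them. Irf7, the transcription factor that amplifies interferon, was not called, at 18 ± 13.3 CPM in injured libraries, against 6.84 ± 3.02 CPM in the controls (log2 fold change 1.34, SE 0.46, adjusted p = 0.117).

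**Figure D3:**
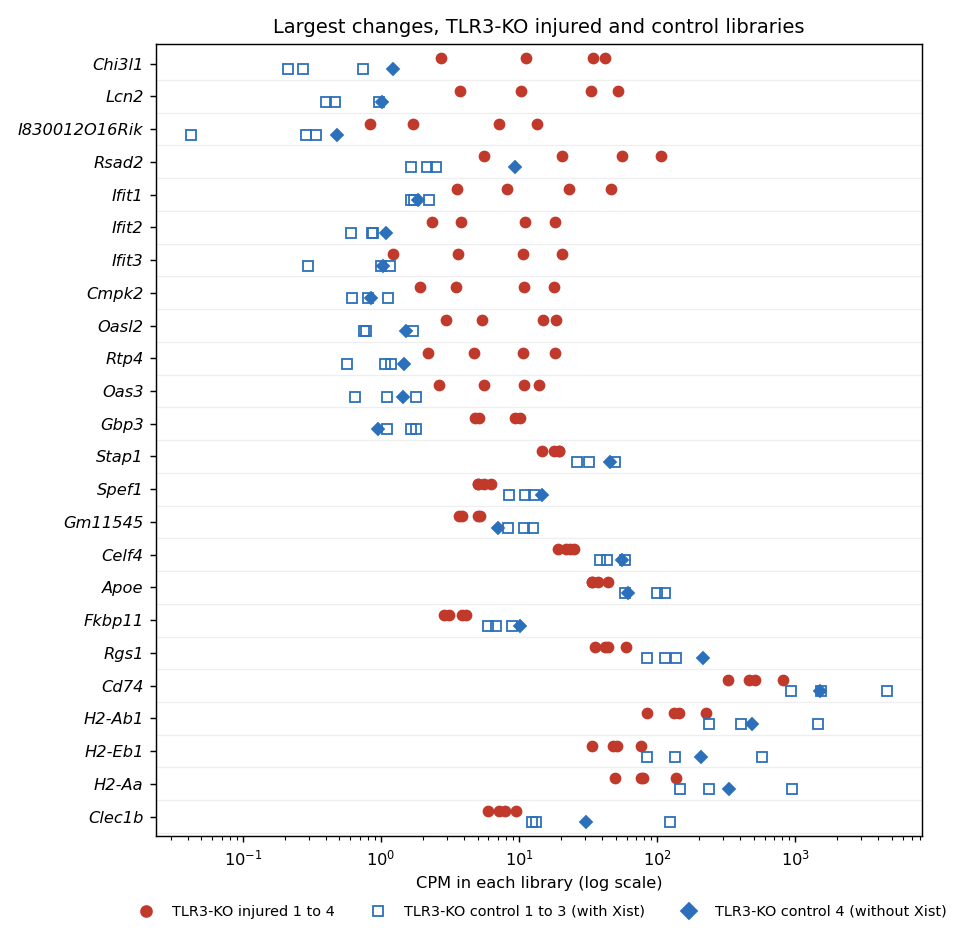
Level of the 12 called genes with the largest rises and the 12 with the largest falls among those averaging at least 5 CPM in a group, in CPM on a log axis. Red circles are TLR3-KO injured 1 to 4, open blue squares TLR3-KO controls 1 to 3 with Xist, and blue diamonds TLR3-KO control 4. Rsad2 spans 5.56 to 107 CPM in injured libraries and reaches 9.31 CPM in control 4, while Clec1b and the class II genes spread mostly in the controls.

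Promoter stretches of called interferon genes are printed because their members moved together, and because they hold letters to which interferon-activated factors are known to bind. The ISRE letters, GAAA repeated after any 2 bases, were searched on both strands in the 250 bases before each start, as were the GAS letters TTCNNNGAA, known from the interferon gamma response. The sequences are those of RefSeq on GRCm38.p6, read 5′ to 3′ on the strand of the gene, and capitals mark the match or its reverse complement. The ISRE stretches of Ifit1 (chr19:34640784-34640833, plus strand), Ifit3 (chr19:34583387-34583436, plus), Rsad2 (chr12:26456543-26456592, minus), Oas3 (chr5:120777705-120777754, minus), Ddx60 (chr8:61928014-61928063, plus) and Gbp7 (chr3:142530263-142530312, plus) come first. The GAS stretches of Irf1 (chr11:53769904-53769952, plus) and Serpina3g (chr12:104236094-104236142, plus) follow.
Ifit1: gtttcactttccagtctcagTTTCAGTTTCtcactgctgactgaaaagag
Ifit3: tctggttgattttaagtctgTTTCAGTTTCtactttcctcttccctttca
Rsad2: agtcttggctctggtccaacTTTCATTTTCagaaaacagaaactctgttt
Oas3: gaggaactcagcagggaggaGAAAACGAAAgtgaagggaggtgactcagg
Ddx60: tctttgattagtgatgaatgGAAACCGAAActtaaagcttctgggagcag
Gbp7: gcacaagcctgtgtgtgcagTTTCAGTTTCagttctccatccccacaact
Irf1: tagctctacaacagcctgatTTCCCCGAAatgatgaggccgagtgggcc
Serpina3g: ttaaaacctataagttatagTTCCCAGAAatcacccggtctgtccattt

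The ISRE match of Ifit1 printed above began 85 bases before the start, and a second began 104 bases before it. ISRE letters stood in 8 of the 14 called genes of both interferon lists that matched the promoter table (57.1%), where 19 were called, and in 18 of 41 matched members that were not called (43.9%). Over all 27025 genes with a promoter in the table the share was 3.46%. GAS letters stood in 13 of the 23 matched genes of the interferon gamma list (56.5%), against 8.13% of all genes. A match describes the letters only, and called and uncalled members of the lists held ISRE letters in shares that were not tested against each other.

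Genes induced by interferon gamma were called higher in 8 of 31 tested members, beside 0.932% of all genes tested, and none was called lower. The median log2 fold change was 1.09, with 29 of 31 positive. The called members were the guanylate-binding proteins Gbp3, Gbp6 and Gbp7, the immunity-related GTPases Tgtp1 and Ifi47, the transcription factor Irf1, the nitric oxide synthase Nos2 and the serpin Serpina3g. Gbp7, one of the GTPases that attack membranes around intracellular microbes, was nearly the same in all injured libraries, at 31.9, 30.7, 32.0 and 32.6 CPM in injured 1 to 4, against 13.9, 21.3, 10.3 and 11.2 CPM in controls 1 to 4. Its log2 fold change was 1.09 (SE 0.25, adjusted p = 0.0473), without overlap. Gbp3 was counted at 9.41, 4.76, 5.16 and 10.1 CPM in injured 1 to 4, against 1.78, 1.64, 1.1 and 0.943 CPM in controls 1 to 4, again without overlap (log2 fold change 2.35, SE 0.56). Irf1, which drives many of these genes, was counted at 102, 70.6, 74.8 and 97.5 CPM in injured 1 to 4, against 45.3, 48.9, 39.8 and 44.8 CPM in controls 1 to 4 (log2 fold change 0.88, SE 0.21, adjusted p = 0.0489). The controls were close together and every injured library lay above them.

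Nos2, which makes nitric oxide, had no count in any TLR3-KO control and 107 counts over the 4 injured libraries, at 1.2, 0.0423, 0.236 and 1.09 CPM in injured 1 to 4. Set against a floor of 3 counts over the control group it was at least 39.6-fold higher, and it was low in every library. Serpina3g was counted at 3.69, 1.37, 2.02 and 5.84 CPM in injured 1 to 4, against 0.19, 0.295, 0.127 and 0.184 CPM in controls 1 to 4 (log2 fold change 3.94, SE 0.75, adjusted p = 0.0363), without overlap. Tgtp1 reached 0.729, 0.0846, 0.337 and 1.21 CPM in injured 1 to 4 and at most 0.0422 CPM in the controls, and it has near-identical copies, so its count is uncertain. Cxcl10, the chemokine that draws in T cells, was not called, at 12 ± 7.53 CPM in injured libraries, against 3.14 ± 1.43 CPM in the controls (n = 4 each, SD; log2 fold change 1.85, SE 0.64, adjusted p = 0.118).

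**Figure D4:**
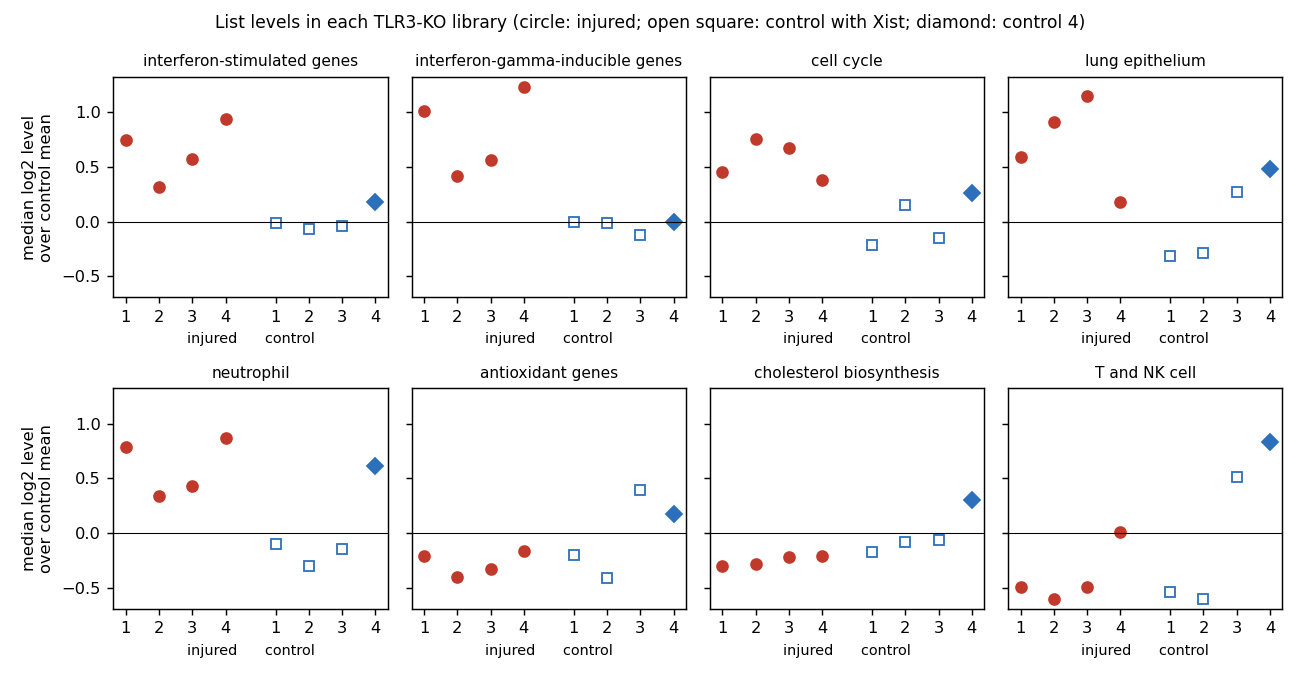
Level of 8 gene lists in each TLR3-KO library, as the median over members of log2(CPM + 0.5) minus the mean over the 4 controls. Red circles are injured 1 to 4, open blue squares controls 1 to 3 with Xist and blue diamonds control 4. Both interferon lists lie above every control in every injured library and are highest in injured 4 and 1, the cell cycle list is highest in injured 2 and 3, and T and NK cell markers separate controls 3 and 4 from controls 1 and 2.

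Along the TLR3 pathway itself 1 of 14 tested members was called, Traf6, the ubiquitin ligase through which TRIF and MyD88 reach NF-kB. It was counted at 37.2, 42.8, 46.6 and 35.7 CPM in libraries TLR3-KO injured 1 to 4, against 20.5, 30.0, 22.6 and 23.6 CPM in controls 1 to 4 (log2 fold change 0.68, SE 0.16, adjusted p = 0.0489), without overlap. The median of this list was 0.04. Tab2, an adaptor of the kinase TAK1 downstream of Traf6, was lower without a call, at 14.6 ± 1.58 CPM in injured libraries, against 19.8 ± 3.36 CPM in the controls (log2 fold change -0.51, SE 0.14, adjusted p = 0.0658). Ifnb1, the interferon beta gene, stayed under 1 CPM in all 8 libraries. Cytosolic sensors of nucleic acids had 2 of 12 members called, beside 1.56% of all genes tested. They were the Z-form sensor Zbp1 and Zc3hav1, which binds and degrades viral RNA. Zc3hav1 was steady in injured libraries, at 28.9, 29.2, 29.1 and 28.7 CPM in injured 1 to 4, against 18.5, 18.1, 19.1 and 22.4 CPM in controls 1 to 4 (log2 fold change 0.51, SE 0.10, adjusted p = 0.0373), with no overlap.

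Of 11 tested Toll-like receptors, adaptors and kinases none was called by edgeR, and the median was 0.08. The 4 with an unadjusted p under 0.05 were Tlr4, its partner Ly96 and the kinases Irak3 and Irak4. Tlr4, the lipopolysaccharide receptor, averaged 99.7 ± 8.78 CPM in injured libraries, against 71.7 ± 16.1 CPM in the controls (n = 4 each, SD; log2 fold change 0.41, SE 0.16, adjusted p = 0.149). Of 29 tested inflammatory mediators, cytokines and chemokines with the cyclooxygenase Ptgs2, none was called by edgeR. An unadjusted p under 0.05 was reached by 6 of them, beside 24% of all genes tested. Their median of 0.25 became -0.02 with TLR3-KO controls 1 and 2 as the only controls. Csf1, the macrophage growth factor, was counted at 116, 30.4, 49.5 and 132 CPM in injured 1 to 4, against 23.5, 32.1, 1.94 and 5.06 CPM in controls 1 to 4. Controls 1 and 2 stood above controls 3 and 4, and the groups overlapped (log2 fold change 2.29, SE 0.88, adjusted p = 0.145). Il6, Il10, Il12a and Csf3 were among 8 listed cytokines that stayed under 1 CPM in all 8 libraries. NF-kB subunits and feedback inhibitors had 0 of 17 called and a median of -0.01, and 1 of them had an unadjusted p under 0.05. Suppressors of cytokine signalling had 1 of 13 called, Usp18, described above, and a median of 0.26.

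Antimicrobial and acute phase genes were called higher in 3 of 15 tested members, Lcn2, Chi3l1 and Nos2, beside 0.932% of all genes tested. The median log2 fold change of the list was 0.86. Lcn2, which binds bacterial siderophores such as the enterobactin of Klebsiella, was counted at 33.0, 3.72, 10.3 and 51.8 CPM in libraries TLR3-KO injured 1 to 4, against 0.972, 0.4, 0.464 and 1.01 CPM in controls 1 to 4. The lowest injured library lay above the highest control. Against control 4 alone its log2 fold change was 4.65, beside 5.06 (SE 1.11, adjusted p = 0.0415) against all 4. Chi3l1, now named Chil1, a chitinase-like protein released by macrophages and neutrophils, had a log2 fold change of 5.16 (SE 1.11) and of 4.25 against control 4 alone. Upp1, a uridine phosphorylase, and Prok2, a secreted peptide found in neutrophils, were picked after their values were seen. Upp1 was counted at 6.42, 0.613, 2.19 and 9.23 CPM in injured 1 to 4, against 0.0711, 0.0631, 0.0843 and 0.276 CPM in controls 1 to 4, without overlap (log2 fold change 5.16, SE 1.13, adjusted p = 0.0415). Prok2 had 60 counts over the injured libraries and none over the controls, at least 22.2-fold higher against a floor of 3 counts over the control group.

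The list of neutrophil markers had 1 of 20 tested members called. Their summed level lay between 807 and 1168 CPM in injured and between 693 and 858 CPM in control libraries, 18 members were positive, and the median was 0.61. It was 0.28 against control 4 alone and 1.27 against controls 1 and 2 alone. In the list's level by library, control 4 lay above injured 2 and 3. Elane was at 0 in all 8 libraries, and Camp, Ngp, Mpo, Stfa2l1 and Padi4 stayed under 1 CPM. The called marker was Lrg1, a secreted glycoprotein that neutrophils store, at 27.0, 25.3, 13.6 and 25.9 CPM in injured 1 to 4, against 11.7, 12.4, 11.2 and 8.03 CPM in controls 1 to 4 (log2 fold change 1.01, SE 0.24, adjusted p = 0.0489). Injured 3 lay close to the controls, without overlap, and the log2 fold change of Lrg1 was 1.56 against control 4 alone. The list's other members were not called. Its members Csf3r, Mmp9 and Asprv1 were not called, and injured 2 lay below control 4 for Mmp9 and Asprv1. Clec4d, another member, was lower without a call (log2 fold change -1.09, SE 0.37, adjusted p = 0.113). The integrin Itgam, listed here under complement, was not called either. It was counted at 22.6, 10, 22.7 and 24.3 CPM in injured 1 to 4, against 3.93, 4.27, 7.11 and 8.9 CPM in controls 1 to 4. The part of neutrophil RNA in the rises of Lcn2, Chi3l1, Upp1 and Prok2 was not tested.

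Core MHC class II genes were lower in TLR3-KO injured than in TLR3-KO control libraries. Of 16 tested members of class II presentation 4 were called lower, beside 0.629% of all genes tested, and none higher. The list's median was -0.28 (-0.45 against controls 1 and 2 alone). The 4 called were the peptide-binding chains H2-Aa, H2-Ab1 and H2-Eb1 and the invariant chain Cd74. Cd74 was counted at 818, 461, 326 and 512 CPM in libraries TLR3-KO injured 1 to 4, against 1536, 932, 4627 and 1505 CPM in controls 1 to 4 (log2 fold change -2.08, SE 0.50, adjusted p = 0.0489). Control 3 stood far above the rest, and the lowest control was still above the highest injured library. H2-Ab1 was counted at 227, 132, 83.8 and 144 CPM in injured 1 to 4, against 405, 236, 1460 and 490 CPM in controls 1 to 4, also without overlap. With TLR3-KO control 3 left out the log2 fold changes were -1.39 for Cd74, -1.42 for H2-Ab1, -1.49 for H2-Eb1 and -1.53 for H2-Aa, none of them called (adjusted p = 0.149, 0.126, 0.113 and 0.114 in that order). Against control 4 alone they were -1.46, -1.69, -1.94 and -1.89 in the same order. In WT, Cd74 lay at 437 to 914 CPM in injured and 442 to 1359 CPM in control libraries (log2 fold change -0.33). The difference of its responses was not called (edgeR, adjusted p = 0.242). H2-Ab1 lay at 148.5 to 232 CPM in WT injured and 118 to 341 CPM in WT control libraries, and the list's WT median was 0.03.

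Other genes called lower were also highest in TLR3-KO control 3. Clec1b, a C-type lectin receptor, was counted at 9.53, 7.1, 6.0 and 7.88 CPM in injured 1 to 4, against 13.3, 12.5, 124 and 30.4 CPM in controls 1 to 4. It was the only 1 of 26 phagocytic and scavenger receptors called, and its log2 fold change of -2.60 (SE 0.57, adjusted p = 0.0415) became -1.33 without control 3 and -0.88 with controls 1 and 2 as the only controls. Slc1a3, a glutamate transporter, Bicd1, a dynein adaptor, and Pla2g2d, a secreted phospholipase, were picked after their values were seen, and each was highest in control 3 and next in control 4. Slc1a3 was counted at 0.965, 0.233, 0.202 and 0.533 CPM in injured 1 to 4, against 1.37, 1.16, 7.36 and 2.74 CPM in controls 1 to 4 (log2 fold change -2.73, and -1.88 without control 3). Pla2g2d overlapped between groups, at 0.169 to 0.329 CPM in injured and 0.253 to 4.6 CPM in control libraries, and its log2 fold change of -3.04 was -2.22 without control 3 and -3.50 against control 4 alone.

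Markers of antigen-presenting and lymphoid cells were also unequal among the controls. Dendritic cell markers had 1 of 17 called, Clec9a, a receptor of cross-presenting dendritic cells, at 1.22, 1.35, 0.809 and 1.04 CPM in injured 1 to 4, against 2.16, 2.42, 4.47 and 2.67 CPM in controls 1 to 4 (log2 fold change -1.45, SE 0.30, adjusted p = 0.0374). The list was split, with 8 members positive, 9 negative and a median log2 fold change of -0.06. Its member Fscn1 was higher without overlap and without a call (log2 fold change 1.07, SE 0.44, adjusted p = 0.161). The summed level of the dendritic list lay between 318 and 381 CPM in injured and between 404 and 520 CPM in control libraries. Cst3 led this sum, so its fall does not stand for the list as a set. Cd209a, Kmo, Dpp4 and Clec10a stayed under 1 CPM. T and NK cell markers had a median of -1.35 with none of 26 called by edgeR (8 had an unadjusted p under 0.05, beside 24% of all genes tested). The median of these markers was 0.68 with controls 1 and 2 as the only controls. Their sum lay between 213 and 278 CPM in injured and between 268 and 479 CPM in control libraries. Cd2 led this sum, at 201 to 256 CPM in injured and 258 to 442 CPM in control libraries. Cd3d, Cd5, Cd28 and Ncr1 were among 12 members under 1 CPM in all 8. B cell markers had a median of -0.82 over 12 members (-2.17 against control 4 alone and -0.13 against controls 1 and 2 alone), none called and none with an unadjusted p under 0.05. Their sum, led by Cd22, ran from 124 to 145 CPM in injured and from 119 to 166 CPM in control libraries. The part of these cells in the falls of class II genes and Clec9a was not tested.

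The calls among lipid, sterol and antioxidant genes were all lower. Among 30 genes of lipid handling 2 were called lower and none higher, Apoe and Apobec1, with a median of -0.10. Apoe, which carries cholesterol out of macrophages, was counted at 37.5, 44.3, 33.6 and 34 CPM in libraries TLR3-KO injured 1 to 4, against 99.6, 58.8, 114 and 61.8 CPM in controls 1 to 4, without overlap (log2 fold change -1.24, SE 0.22, adjusted p = 0.0279). Against control 4 alone it was -0.68. Apobec1, the enzyme that edits Apob mRNA, averaged 92.2 ± 5.69 CPM in injured libraries, against 126 ± 10.3 CPM in the controls (n = 4 each, SD; log2 fold change -0.52, SE 0.10). Apoc1, which lies beside Apoe, was just short of a call, at 1.13, 0.698, 0.674 and 1.34 CPM in injured 1 to 4, against 4.15, 2.23, 3.58 and 1.68 CPM in controls 1 to 4 (log2 fold change -1.67, SE 0.41, adjusted p = 0.0528). Fabp4, a fatty acid carrier typical of alveolar macrophages, was not called, at 213 ± 59.4 CPM in injured libraries, against 435 ± 147 CPM in the controls (log2 fold change -1.08, SE 0.29, adjusted p = 0.0697).

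Cholesterol biosynthesis had 2 of 23 members called lower, beside 0.629% of all genes tested, none higher, and a median of -0.38. Of its members 7 lay below every control, beside 3.03% of all genes tested. The 2 called were Pmvk and Mvd, neighbouring enzymes of the mevalonate pathway. Mvd was counted at 171, 172, 168 and 178 CPM in injured 1 to 4, against 258, 225, 200 and 253 CPM in controls 1 to 4 (log2 fold change -0.51, SE 0.11, adjusted p = 0.0405), without overlap. Antioxidant genes had 3 of 27 called lower, beside 0.629% of all genes tested, and none higher. Their median of -0.36 was -0.07 with controls 1 and 2 as the only controls. The 3 called were the glutathione transferase Gstm1 and the ferritin chains Ftl1 and Fth1. Gstm1 was counted at 592, 578, 598 and 516 CPM in injured 1 to 4, against 853, 708, 1190 and 943 CPM in controls 1 to 4 (log2 fold change -0.76, SE 0.16, adjusted p = 0.0374). The ferritin genes have many processed copies, so their counts are uncertain. Of 19 iron handling genes 1 was called higher, Lcn2, and 2 lower, the same ferritin chains.

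Of 23 tested markers of the lung epithelium 1 was called higher in TLR3-KO injured libraries, none was called lower and 17 were positive. Cldn18, a tight-junction protein of alveolar cells, was counted at 4.54, 5.58, 7.11 and 2.04 CPM in injured 1 to 4, against 0.735, 1.81, 1.92 and 1.61 CPM in controls 1 to 4 (log2 fold change 1.61, SE 0.37, adjusted p = 0.0489). Injured 3 was the highest and injured 4 lay just above the controls. The surfactant proteins Sftpb, Sftpd and Sftpa1 were not called, at log2 fold changes of 1.56 (SE 0.39, adjusted p = 0.0532), 1.62 (SE 0.43, adjusted p = 0.0644) and 1.22 (SE 0.32, adjusted p = 0.0643). Against control 4 alone their log2 fold changes were 0.71, 0.81 and 0.69 in that order. Sftpa1 was counted at 4.75, 7.12, 9.07 and 3.15 CPM in injured 1 to 4, against 1.52, 1.73, 2.93 and 3.84 CPM in controls 1 to 4. Injured 4 lay below control 4, as it did for Sftpb (1.25 against 1.45 CPM) and Sftpd (1.85 against 2.07 CPM). The median of the list was 0.70, against 1.52 with controls 1 and 2 as the only controls, 0.34 with controls 3 and 4 and 0.60 with control 4 alone. An unadjusted p under 0.05 was reached by 10 members on the higher side and 2 on the lower, beside 24% of all genes tested in either direction. The summed level ran from 2162 to 2538 CPM in injured and from 2080 to 3045 CPM in control libraries, led by Lyz1, which macrophages also express. Slc34a2, Lamp3, Rtkn2 and Foxj1 stayed under 1 CPM.

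Genes of the basement membrane and of epithelial surfaces were picked after their values were seen. Lamb3, a laminin beta chain, was counted at 1.79, 2.52, 2.83 and 1.67 CPM in injured 1 to 4, against 0.427, 0.442, 0.801 and 0.621 CPM in controls 1 to 4 (log2 fold change 1.87, SE 0.41). The phosphatase Ptprf at 2.03 (SE 0.48), the aminopeptidase Enpep at 2.43 (SE 0.58) and the collagen IV chain Col4a3 at 1.57 (SE 0.38) were called as well. Injured 2 and 3, which were the lowest for interferon genes, were the highest for Lamb3 and Cldn18. The part of epithelial RNA in these rises was not tested.

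Cell cycle genes had a median of 0.50 (0.32 against control 4 alone), with 45 of 48 tested members positive. Of them 22 lay above every control, beside 11.2% of all genes tested. None was called (edgeR, adjusted p under 0.05). An unadjusted p under 0.05 was reached by 28 on the higher side and 1 on the lower, beside 24% of all genes tested in either direction. By library, control 4 (0.26) had the highest level of this list among the controls and injured 4 (0.38) the lowest among the injured. DESeq2, which called 8.32% of genes tested, gave adjusted p of 0.0113 for Melk and 0.0183 for Anln. For the members Bub1 and Cdc6 it gave 0.0194 and 0.0158. Melk, a mitotic kinase, was counted at 13.6, 17.7, 17.8 and 13.1 CPM in libraries TLR3-KO injured 1 to 4, against 7.75, 9.89, 6.49 and 8.49 CPM in controls 1 to 4, without overlap (log2 fold change 0.86, SE 0.23, adjusted p = 0.0675). Anln, the scaffold of the cleavage furrow, averaged 43.1 ± 9.78 CPM in injured libraries, against 22.1 ± 4.74 CPM in the controls (n = 4 each, SD; log2 fold change 0.90, SE 0.26, adjusted p = 0.0783). Outside the list Dtl, which targets replication licensing factors for destruction, was called, at 9.36, 9.81, 11.3 and 7.56 CPM in injured 1 to 4, against 3.27, 4.63, 2.83 and 3.91 CPM in controls 1 to 4 (log2 fold change 1.31, SE 0.23, adjusted p = 0.026). Nuclear-encoded genes of oxidative phosphorylation ran the other way, with 66 of 72 negative, a median of -0.27 and none called. Of them 12 had an unadjusted p under 0.05, all lower, beside 24% of all genes tested in either direction. Only 1 lay below every control, beside 3.03% of all genes tested. In the list's level by library the groups overlapped, with control 2 (-0.25) among the injured libraries and injured 4 (0.01) among the controls.

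Stress and signalling lists held a few calls each. Of 25 immediate early genes 2 were called lower, Rgs1, a brake on chemokine receptor signalling, and Btg2, an antiproliferative factor. Rgs1 was counted at 44.3, 35.7, 41.6 and 59.3 CPM in injured 1 to 4, against 84.4, 115, 137 and 213 CPM in controls 1 to 4 (log2 fold change -1.65, SE 0.29, adjusted p = 0.026), without overlap. Btg2 had a log2 fold change of -0.76 (SE 0.13), and the median of this list was -0.03, or 0.47 against control 4 alone. Of 30 genes of the unfolded protein response 2 were called lower, the transcription factor Atf4 at -0.65 (SE 0.15) and Fkbp11, a prolyl isomerase of the secretory pathway, at -1.25 (SE 0.25), with a median of -0.13. Atf4 was counted at 167, 151, 142 and 182 CPM in injured 1 to 4, against 250, 227, 207 and 279 CPM in controls 1 to 4, without overlap. In the circadian clock 1 of 16 was called, the repressor Nr1d1, at 42.2, 44.3, 33.1 and 35.8 CPM in injured 1 to 4, against 19.1, 23.2, 15.0 and 11.5 CPM in controls 1 to 4 (log2 fold change 1.10, SE 0.21, adjusted p = 0.0363, and 1.79 against control 4 alone). The sources used here do not give the hour of sampling. Of 19 genes of MHC class I presentation 1 was called, the heavy chain H2-D1, lower at -0.48 (SE 0.09), and related class I genes can share reads with it.

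Of the 186 called genes 142 stood in none of the 38 lists. The lowest adjusted p of all, 0.0105, belonged to Aqp9, a channel for glycerol and water, at 7.93, 7.63, 11.9 and 9.85 CPM in injured 1 to 4, against 3.46, 3.87, 2.59 and 3.1 CPM in controls 1 to 4 (log2 fold change 1.44, SE 0.19). It did not overlap and kept its call in every fit that left out 1 library except that without injured 3 (adjusted p = 0.0654). Tmem151a, a membrane protein, was even within both groups, at 57.5, 58.8, 52.7 and 54.7 CPM in injured 1 to 4, against 91.1, 89.0, 90.6 and 85.3 CPM in controls 1 to 4 (log2 fold change -0.74, SE 0.10, adjusted p = 0.0131). Celf4, an RNA-binding protein, was counted at 24.8, 21.8, 23.3 and 19.0 CPM in injured 1 to 4, against 43.6, 38.6, 58.4 and 55.2 CPM in controls 1 to 4 (log2 fold change -1.20, SE 0.18, adjusted p = 0.0174). The fatty acid receptor Ffar2 at 1.30, the small GTPase Rab15 at 2.96, the polarity protein Prickle1 at 2.66, the F-box protein Fbxo21 at 0.88 and the deubiquitinase Usp46 at 0.87 were called higher. The adaptor Stap1 at -1.16, Spef1, known from cilia, at -1.16, the alkaline phosphatase Alppl2 at -2.45 (-1.60 against control 4 alone), the transcription factor Usf2 at -0.65 and the ubiquitin ligase Znrf1 at -0.54 were called lower.

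**Figure D5:**
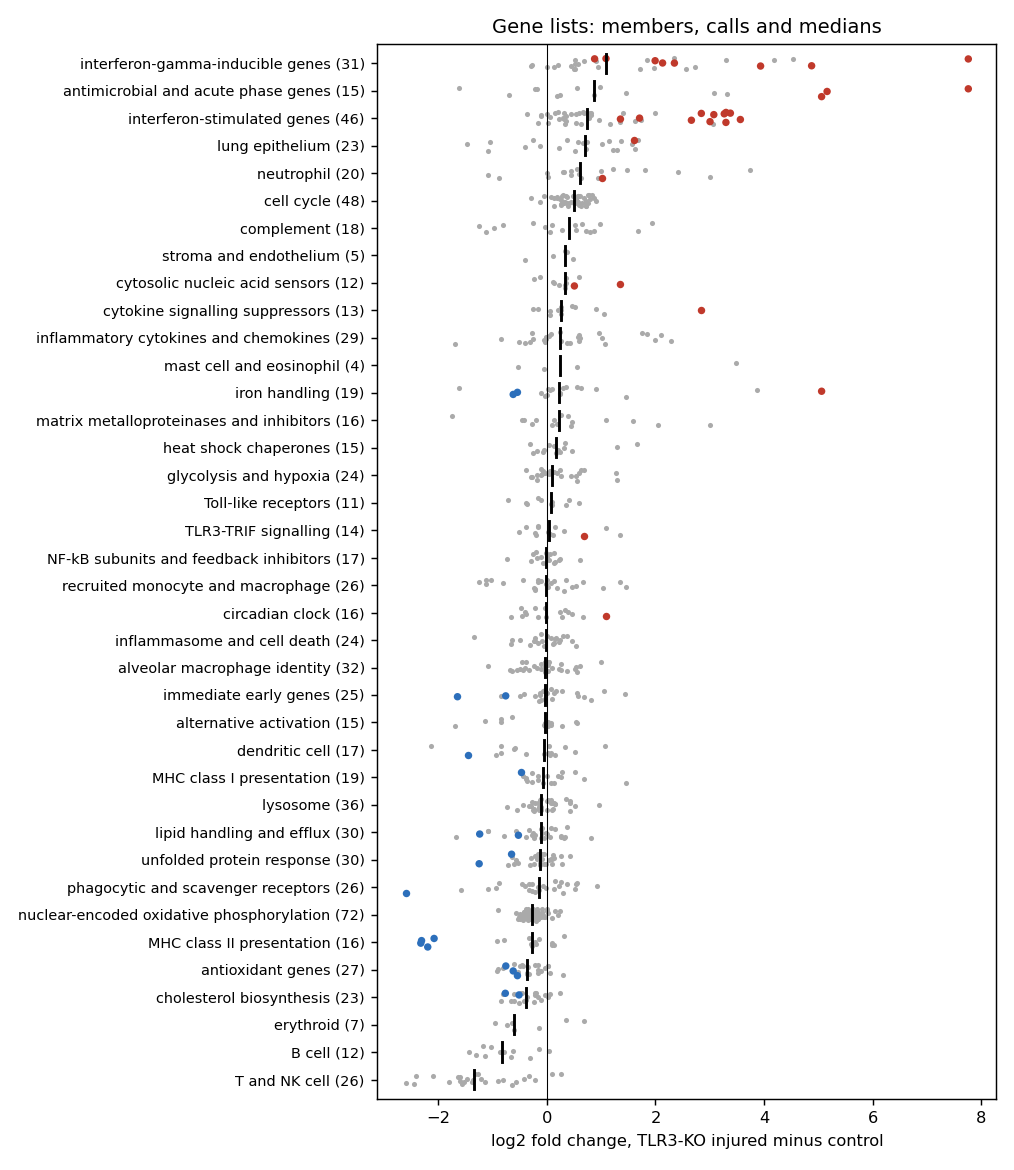
The 38 gene lists in order of their median log2 fold change of TLR3-KO injured over TLR3-KO control libraries, with the number of tested members in brackets. Each point is a gene, red where called higher, blue where called lower and grey where not called, and the black bar is the list's median. The interferon gamma list has the highest median, at 1.09, and T and NK cell markers the lowest, at -1.35. The rightmost red point is Nos2, whose place depends on the prior count of the fit.

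In WT macrophages the same contrast called 2 of 11915 genes (0.0168%). The response of TLR3-KO minus that of WT, tested gene by gene in the same edgeR fit, called 0 genes. An unadjusted p under 0.05 was reached by 2114 (17.7%), the lowest adjusted p was 0.235, and DESeq2 called 91. With controls 3 and 4 as the only TLR3-KO controls edgeR called 589 such differences, and with controls 1 and 2 only it called 1. Of the 186 genes called in TLR3-KO 137 had a WT log2 fold change of the same sign, 82 of the 111 higher and 55 of the 75 lower. The medians of those called higher were 0.96 in TLR3-KO and 0.24 in WT, and of those called lower -0.73 and -0.16. These genes were chosen for their size in TLR3-KO, so a smaller WT median is no test of a difference.

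The interferon lists had medians of the same sign in both genotypes. Those of the interferon-stimulated list were 0.73 in TLR3-KO and 0.53 in WT, those of the interferon gamma list 1.09 and 0.90, those of antimicrobial genes 0.86 and 0.80, and those of cholesterol biosynthesis -0.38 and -0.69. Other lists had opposite signs. The cell cycle medians were 0.50 in TLR3-KO and -0.22 in WT, those of oxidative phosphorylation -0.27 and 0.19, and those of the lung epithelium 0.70 and -0.26. Cldn18 had log2 fold changes of 1.61 in TLR3-KO and -1.15 in WT, a difference of 2.75 (SE 0.54, adjusted p = 0.235). It lay between 0.466 and 0.756 CPM in WT injured and between 0.877 and 1.96 CPM in WT control libraries. Apoe had log2 fold changes of -1.24 in TLR3-KO and -0.02 in WT (difference -1.22, SE 0.31, adjusted p = 0.235). TLR3-KO injured libraries, at 33.6 to 44.3 CPM, lay among the WT libraries, at 31.2 to 46.6 CPM in WT injured and 29.7 to 42.9 CPM in WT control libraries, and all 4 TLR3-KO controls stood above them.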

How the data were processed

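The authors deposited a table of raw read counts per gene symbol, 23159 symbols in 16 libraries, made with HTSeq as its name states. Per the labels' protocols, libraries were TruSeq mRNA read as paired ends of 50 bases, and per the submitters' processing notes TopHat2 2.0.13 with Bowtie2 2.2.1 aligned the reads to mm10. The sources used here give no HTSeq version, strand setting or annotation, which leaves counts of near-identical copies and of genes overlapping on opposite strands uncertain.

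Groups and replicate numbers came from the sample titles. By symbol or older symbol 22704 genes were placed in GENCODE M21 (mm10), and the 455 others were fitted but are not reported. Calls over every tested gene numbered 192, of which 5 lay on X or Y and 1 had no position. filterByExpr with a minimum count of 10 kept 12455 genes. With TMM factors of 0.9 to 1.07, the quasi-likelihood model of edgeR 4.0.16 under R 4.3.3 was fitted to all 16 libraries with 1 coefficient per group. The Benjamini-Hochberg adjustment ran over the whole set of tested genes, and those under 0.05 were called. CPM use raw totals. The SE is the log2 fold change over the square root of the F statistic. The biological coefficient of variation was 0.238, and no 2 libraries of a group were copies (chi-square per degree of freedom 8.43 to 322 over genes with at least 20 counts). The fit was tested on simulated data with known changes.

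The members and lists were chosen with earlier results of these data known. Named were the called genes with a log2 fold change of at least 1 in size and a group mean of at least 5 CPM (the 12 highest and 12 lowest by library), the called members of each of 38 lists and up to 4 members a list in order of p, and the 10 other called genes with the lowest p. Lamb3, Ptprf, Enpep, Col4a3, Upp1, Prok2, Slc1a3, Pla2g2d and Bicd1 were picked after their values were seen. Some genes these rules name are not reported here. Alternatives were RLE size factors, DESeq2 1.42.0, voom with equal weights in limma 3.58.1, other filters, robust empirical Bayes, the 8 TLR3-KO libraries alone, a block on the replicate number, leaving out each library, and subsets of the controls. Promoters are those of RefSeq on GRCm38.p6. Tables and figures used matplotlib 3.10.9, scipy 1.17.1, numpy 2.4.6 and pandas 2.3.3 in python 3.11.15.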

Additional observations from a re-analysis of the deposited data

Results flagged for a closer look

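In 370 sets of 4 libraries, the injured and the control libraries of each named gene, 23 held a library whose gap to the next took up more of the set's range than Dixon's critical value allows. Chance gives about 1 in 20. TLR3-KO control 4 was that library in 10, always on the high side. It held Upp1 at 0.276, Rsad2 at 9.31, Mmp9 at 5.08, Sftpb at 1.45, Pecam1 at 2.92, Ccr3 at 0.69, Pdcd1lg2 at 13.2, Fcrla at 4.12, Blk at 3.04 and Siglech at 2.0 CPM. TLR3-KO control 3 was high for Kcnip4 at 11.0, Cd74 at 4627 and Clec1b at 123.7 CPM.

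TLR3-KO injured 4 was high for Ndufb9 at 64.4, Ctsk at 1319 and Bax at 211.3 CPM and low for Kit at 1.09 CPM. TLR3-KO injured 1 was high for Alppl2 at 0.259 CPM, injured 2 was low for Itgam at 10 CPM and injured 3 was low for Lrg1 at 13.6 CPM. TLR3-KO control 1 was low for Usp46 at 3.93 CPM, and control 2 was low for Tap1 at 23 CPM and high for Pdk1 at 40.8 CPM.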

How the results depend on the processing

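Against 186 calls outside X and Y, RLE size factors gave 182, at least 5 CPM in 3 libraries 186 (150 shared), robust empirical Bayes 131, voom with equal weights 98, no filter on low counts 100, the 8 TLR3-KO libraries alone 35 and DESeq2 991. With TLR3-KO control 4 only it was 6, with controls 1 and 2 only 6, with controls 3 and 4 only 2787, and with 1 library left out 0 to 1181. The lone control is assumed to vary like the other groups. The cause of these shifts was not tested. Differences between the genotypes' responses, 0 as reported, were 91 in DESeq2, 1 with controls 1 and 2 only and 589 with controls 3 and 4 only. WT calls, 2 as reported, were 11 with RLE, 163 in DESeq2, 0 with voom, 1 without a filter and 0 with robust empirical Bayes. No label says that a replicate number in the titles marks a shared mouse, litter or day, so the numbers are not taken as pairs. Libraries with the same number correlated at 0.29, 0.36, -0.14 and 0.39 for numbers 1 to 4, and 6 of 8 matched their own number best. What libraries of the same number share was not tested. With the replicate number as a block there were 110 calls, 51 of them shared with the 186.

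Of the 79 called genes named here none changed sign under any alternative that gave a value. They were called with the same libraries, and a gene without overlap tends to keep its sign in any subset, so this is no test of stability. Uncalled genes that changed sign, by log2 fold change, were Car2 (-0.16), C1qb (0.50), C1qc (0.43), Nfkbib (0.00) and Pecam1 (-1.15) with control 4 only, Nfkbib (0.03) and Pecam1 (-0.40) with controls 3 and 4 only, and Ccr3 (2.82), Beta-s (0.38), Hba-a2 (0.21) and Skap1 (0.51) with controls 1 and 2 only. With 1 library left out the range was -0.02 to 1.80 for Pecam1, -0.47 to 2.21 for Ccr3, -0.95 to 0.54 for Beta-s and -1.12 to 0.65 for Hba-a2, and voom gave 1.04 for Ccr3. Low counts limit Nos2, Prok2 and Tgtp1. Genes such as Prickle1, Rab15, Alppl2 and Pla2g2d also had few counts in 1 of the groups. Prickle1 had 2, 9, 2 and 4 counts and Rab15 6, 8, 7 and 9 in controls 1 to 4. Alppl2 had 11, 6, 3 and 5 counts and Pla2g2d 14, 14, 5 and 8 in injured 1 to 4.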

Other observations

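Several lists held no called gene in the TLR3-KO comparison (edgeR's quasi-likelihood test). Heat shock chaperones had a median log2 fold change of 0.16 over 15 genes, with 7 above every control and 3 at an unadjusted p under 0.05. Of all genes tested, 11.2% lay above every control and 24% reached an unadjusted p under 0.05. Hspa1b, an inducible chaperone nearly identical to Hspa1a, was counted at 36.5, 42.2, 52.4 and 41.5 CPM in injured 1 to 4, against 19.1, 9.55, 8.81 and 14.7 CPM in controls 1 to 4 (log2 fold change 1.65, SE 0.51, adjusted p = 0.0946). Irg1, now named Acod1, which makes itaconate in activated macrophages and belongs to the antimicrobial list, was counted at 102, 14.8, 41.7 and 140 CPM in injured 1 to 4, against 7.75, 3.64, 6.81 and 10.7 CPM in controls 1 to 4, without overlap and without a call (log2 fold change 3.32, SE 0.90, adjusted p = 0.0697). Matrix metalloproteinases and their inhibitors had a median of 0.22 over 16 genes, and 6 had an unadjusted p under 0.05. Mmp14, a membrane-bound collagenase, averaged 21.0 ± 5.54 CPM in injured libraries, against 4.81 ± 2.08 CPM in the controls (SD, n = 4 each; adjusted p = 0.0907), while Mmp12, the macrophage elastase, averaged 25.3 ± 6.44 and 82.9 ± 68.5 CPM (adjusted p = 0.104), with 159.5 and 121.9 CPM in controls 3 and 4.

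Over the 32 tested genes of alveolar macrophage identity the median was -0.03, with 8 at an unadjusted p under 0.05. Over 26 recruited monocyte and macrophage markers it was -0.01, with 5 at such a p, where 24% of all genes tested reached it. Car4, a carbonic anhydrase of alveolar macrophages, was counted at 1871, 1661, 1841 and 2468 CPM in injured 1 to 4, against 1231, 1162, 402 and 946 CPM in controls 1 to 4 (log2 fold change 0.99, SE 0.29, adjusted p = 0.0835). The medians were 0.40 for complement (0.93 against control 4 alone and 0.13 against controls 1 and 2 alone), -0.03 for alternative activation, -0.02 for the inflammasome and cell death, 0.09 for glycolysis and hypoxia and -0.10 for the lysosome. Erythroid markers had a median of -0.61 over 7 genes, which was -2.01 against control 4 alone and 0.63 against controls 1 and 2 alone. Their summed level was 71.9 to 180 CPM in injured libraries, against 40.8 to 445.5 CPM in the controls, the highest being control 4. Mast cell and eosinophil markers summed to 6.55 to 37.6 CPM in injured libraries, against 2.0 to 7.41 CPM in the controls. Hdc held 4.12 to 35.5 CPM of this in injured libraries, against 0.337 to 4.69 CPM in the controls, and Epx and Ms4a2 were at 0 in all 8. Stroma and endothelium markers had a median of 0.34 over 5 genes, or 0.05 against control 4 alone.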
